A study of Mus musculus with 6 samples.

Results

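The Notch receptors Notch1, Notch2 and Notch3, the ligands Dll1, Jag1 and Jag2, the target genes Hes1, Hey1 and Heyl, and the related gene Hes6 were followed in C2C12 cells, a mouse myoblast line that forms myotubes when serum is withdrawn. These 10 genes were taken by symbol from the deposited expression table, which lists 20950 entries, and all 10 averaged 1 FPKM or more over the libraries, as did 10731 entries in total. FPKM is the number of fragments of a gene scaled to the length of its transcript and to the depth of the library, so it can be set side by side between genes. Libraries can still differ in overall scale, and the factors that bring them to the same 75th percentile ran from 0.939 to 1.04.

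All cells were C2C12 in DMEM and gave 6 mRNA libraries in 5 conditions. The growing cells were kept in 10% FBS (fetal bovine serum), with 1 library. The differentiating cells had been moved from that medium to 2% HS (horse serum) or to 0.2% FBS, with 1 library each, and the same 2 media with exosomes isolated from FBS gave 1 library of 2% HS + exosome and 2 libraries of 0.2% FBS + exosome, called replicates 1 and 2. The exosomes were added in the amount held by 10% FBS. The comparisons ask how the genes differ between growing and differentiating cells, and whether serum exosomes change them in either differentiation medium. Each medium without exosomes has 1 library, and the numbers in the sample titles do not occur in both differentiation media. Replicate 1 carries the number of the 0.2% FBS library, and replicate 2 a number that no library without exosomes has. Whether these numbers mark batches is not stated, and nothing in the labels says that the libraries came from separate cultures. The p-values therefore measure the spread between these samples, which may be technical, and medium cannot be told apart from single libraries.

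Notch signalling passes between touching cells. A ligand of the Delta or Jagged type on one cell binds a Notch receptor on its neighbour, proteases release the intracellular part of the receptor, and this part joins the DNA-binding protein RBPJ in the nucleus and switches on HES and HEY genes, which encode repressors. In muscle the pathway is known for keeping satellite cells and myoblasts undifferentiated, whereas Hes6 is known as an inhibitor of Hes1 that rises as myoblasts differentiate.

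The depth of the libraries, estimated from the spacing of low FPKM values because no counts were used, lay between 33700000 and 39400000 reads. The estimate assumes fragments of 200 bases, and the depths chosen placed 74.2% to 77.5% of the low values near whole reads. At these depths Hey1 rested on about 42 to 248 reads per library, which is a counting error of 15.5% at the lowest. The other 9 genes rested on at least about 339 reads in each library. The muscle identity of the cells was checked with 7 myoblast and myotube markers, which were all expressed and summed to between 2136 and 5787 FPKM per library. In growing cells the differentiation markers Myog, Ckm, Myh3 and Tnnt3 already stood at 512, 356, 738 and 667 FPKM. In 2% HS they stood at 564, 847, 1575 and 1547 FPKM. The 10% FBS library was therefore not free of differentiation transcripts. Of 15 markers of endothelial, leukocyte, adipocyte, epithelial and glial cells, 14 stayed below 1 FPKM in all libraries, Kdr and Krt5 were listed at 0 in all of them, and the highest value was 2.00 FPKM for Cd68.

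In growing cells Hes6 had the highest level of the 10 genes, at 72.3 FPKM. Notch3 followed with 38.0 FPKM, then Hes1 with 21.5, Notch2 with 19.0, Dll1 with 12.7 and Jag2 with 11.9 FPKM. Notch1 (6.90 FPKM), Heyl (6.14), Jag1 (3.50) and Hey1 (2.84) were the lowest. Between neighbours in this order, the 2 libraries of 0.2% FBS + exosome separated Hes6 from Notch3 and Dll1 from Jag2, but their values overlapped for Hes1 and Notch2, and those of Heyl overlapped with both Jag1 and Hey1. Of these 3 receptors, Notch3 had the highest and Notch1 the lowest FPKM in every library.

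**Figure D1:**
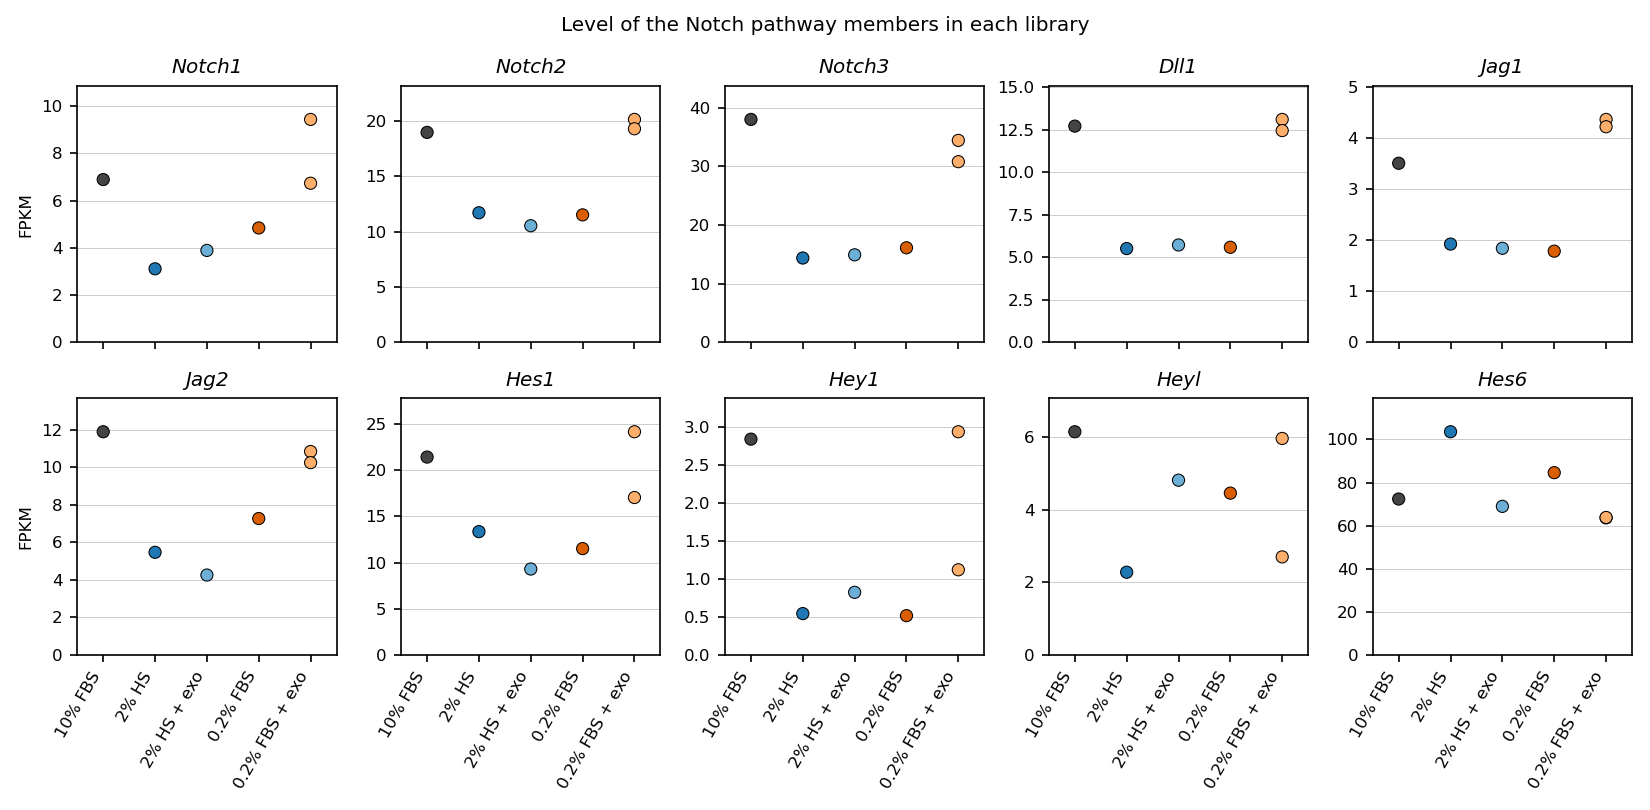
The level of each gene in FPKM (vertical axes, each starting at 0) is shown for the 6 libraries, with 1 point per library and both 0.2% FBS + exosome libraries in the last position of each panel. For 8 genes, the points of 10% FBS and 0.2% FBS + exosome lie above those of the other 3 libraries, and Hes6 and Heyl do not share this order.

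The receptors were higher in growing cells and in 0.2% FBS + exosome than in the other libraries. Notch3, a receptor made by satellite cells, stood at 38.0 FPKM in 10% FBS, 14.4 in 2% HS, 14.9 in 2% HS + exosome, 16.1 in 0.2% FBS, and 30.8 and 34.4 in replicates 1 and 2 of 0.2% FBS + exosome. Both exosome libraries of 0.2% FBS lay below the growing cells and well above the other 3 libraries, which were close to each other. Relative to the 0.2% FBS library, Notch3 was 1.91 and 2.14 times as high in replicates 1 and 2. On the log2(FPKM + 1) scale, used for all changes below and understating those of low genes, it rose by 0.97 ± 0.11 (SD, n = 2, limma adjusted p = 0.0138). Notch3 lies on chr17:32120820-32166852, minus strand, in mm10 (GENCODE vM21), and the antisense gene Gm17276 overlaps it on the other strand.

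Notch2 stood at 19.0 FPKM in 10% FBS, 11.7 in 2% HS, 10.5 in 2% HS + exosome, 11.5 in 0.2% FBS, and 20.1 and 19.3 in replicates 1 and 2 of 0.2% FBS + exosome. The levels fell into a high set of 3 libraries and a low set of 3, with no value in between. With exosomes in 0.2% FBS the gene rose by 0.73 ± 0.04 (SD, n = 2, limma adjusted p = 0.0249), a ratio of 1.75 and 1.68 in the 2 libraries. Notch2 is on chr3:98013527-98150361, plus strand, and 328 of its 10706 stretches of 75 bases also occur in the overlapping transcript Gm42820, so some of its reads fit both. The other 9 genes share no such stretch with an annotated gene outside the 10, when every transcript is read in its own direction. Stretches shared with genes on the opposite strand were not searched for.

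Notch1 stood at 6.90 FPKM in 10% FBS, 3.11 in 2% HS, 3.89 in 2% HS + exosome, 4.84 in 0.2% FBS, and 9.44 and 6.74 in replicates 1 and 2 of 0.2% FBS + exosome. The same 3 libraries were highest, but replicates 1 and 2 lay farther apart than for the other receptors. Replicate 1 differed from 0.2% FBS by 0.84 and replicate 2 by 0.41 (mean 0.62, SD 0.31), which did not pass the test (limma adjusted p = 0.0839). Notch1 lies on chr2:26457903-26516663, minus strand, with 0610009E02Rik and Gm13568 on the opposite strand. The libraries keep the strand, but the strand setting of the FPKM calculation is not given in the sources used here, so reads of genes on opposite strands may not be separated.

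Of the ligands, Dll1 and Jag1 rose with exosomes in 0.2% FBS. Dll1, the Delta-type ligand that maintains muscle progenitors in the embryo, stood at 12.7 FPKM in 10% FBS, 5.52 in 2% HS, 5.73 in 2% HS + exosome, 5.59 in 0.2% FBS, and 13.1 and 12.5 in replicates 1 and 2 of 0.2% FBS + exosome. The 3 low libraries and the 3 high libraries each formed a tight group, and the 10% FBS value lay between the 2 exosome libraries. Relative to 0.2% FBS, Dll1 was 2.35 and 2.23 times as high with exosomes. Its log2 change was 1.10 and 1.03 (mean 1.06, SD 0.05, n = 2, limma adjusted p = 0.00937). On the log2(FPKM + 1) scale it was the only 1 of the 10 genes past a log2 change of 1, the size of the study's fold threshold, in each exosome library of 0.2% FBS. Of all 20950 entries 0.458% passed in that direction, and of the 10731 genes averaging 1 FPKM or more 0.895%. By plain FPKM ratios, without the added 1, Dll1 and Jag1 passed in each library, and so did Hey1, a gene near the filter on low values, where 1.98% of the 10731 genes passed. Dll1 and Jag1 also passed with a pseudocount of 0.1 (1.8% of the genes) and with values below 1 FPKM raised to 1 (1.7%). After scaling every library to the same 75th percentile no member passed 1 (0.587% of the genes). Without replicate 1 of the exosome libraries 3 members did (2.91% of the genes), and without replicate 2 there were 2 (1.44%). None of the 10 genes fell past −1, as 1.61% of the 10731 did. Dll1 lies on chr17:15367354-15376872, minus strand, opposite the long noncoding gene A930024N18Rik.

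Jag1, on chr2:137081456-137116644, minus strand, stood at 3.50 FPKM in 10% FBS, 1.92 in 2% HS, 1.84 in 2% HS + exosome, 1.78 in 0.2% FBS, and 4.36 and 4.22 in replicates 1 and 2 of 0.2% FBS + exosome. Both exosome libraries in 0.2% FBS were above the growing cells, and no value lay between the high and the low set. The ratios to 0.2% FBS, 2.45 and 2.37, were above those of Dll1, but the log2(FPKM + 1) change was 0.95 and 0.91 (mean 0.93, SD 0.03, n = 2, limma adjusted p = 0.0182) since the added 1 weighs more at a lower level. Jag2, on chr12:112907819-112929776, minus strand, stood at 11.9 FPKM in 10% FBS, 5.46 in 2% HS, 4.25 in 2% HS + exosome, 7.26 in 0.2% FBS, and 10.8 and 10.2 in replicates 1 and 2 of 0.2% FBS + exosome. It was higher in each exosome library of 0.2% FBS than in the library without, by 0.48 on average (SD 0.05, limma adjusted p = 0.0818), and lower in the exosome library of 2% HS. That change in 0.2% FBS did not pass the test.

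The target genes varied more between the 2 libraries of 0.2% FBS + exosome than the ligands did. Hes1, the HES repressor most often read as a sign of Notch activity, lies on chr16:30064384-30067796, plus strand. It stood at 21.5 FPKM in 10% FBS, 13.4 in 2% HS, 9.29 in 2% HS + exosome, 11.5 in 0.2% FBS, and 24.2 and 17.1 in replicates 1 and 2 of 0.2% FBS + exosome. Growing cells lay between replicates 1 and 2, which differed from each other by more than 10% FBS did from either. The change with exosomes in 0.2% FBS was 1.01 and 0.53 (mean 0.77, SD 0.34), and its adjusted p of 0.05004 in limma was just above the threshold of 0.05. It was 0.0441 with a pseudocount of 0.1 FPKM and 0.0440 with a filter at a mean of 5 FPKM in limma, both past the threshold. In the other limma settings run it stayed above the threshold, from 0.0601 after scaling to the 75th percentile to 0.809 with 1 exosome effect for both media.

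Hey1, on chr3:8663359-8667256, minus strand, stood at 2.84 FPKM in 10% FBS, 0.540 in 2% HS, 0.820 in 2% HS + exosome, 0.513 in 0.2% FBS, and 1.12 and 2.93 in replicates 1 and 2 of 0.2% FBS + exosome. It had the widest range of the 10 genes, with a highest value 5.72 times the lowest, and it met the filter on low values only through 10% FBS and 0.2% FBS + exosome. The exosome libraries of 0.2% FBS were 2.18 and 5.72 times as high as the library without, and the mean log2 change of 0.93 (SD 0.63) did not pass the test (limma adjusted p = 0.0948). Heyl, on chr4:123233556-123249875, plus strand, stood at 6.14 FPKM in 10% FBS, 2.27 in 2% HS, 4.81 in 2% HS + exosome, 4.45 in 0.2% FBS, and 2.69 and 5.96 in replicates 1 and 2 of 0.2% FBS + exosome. Replicate 1 was below and replicate 2 above the 0.2% FBS library, with log2 changes of −0.56 and 0.35 (SD 0.65, limma adjusted p = 0.860). Hey1 and Heyl encode repressors of the same family, and both were higher in replicate 2 than in replicate 1, whereas Notch1 and Hes1 were higher in replicate 1.

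Hes6, on chr1:91411483-91414038, minus strand, ran the other way. It stood at 72.3 FPKM in 10% FBS, 103.6 in 2% HS, 68.9 in 2% HS + exosome, 84.6 in 0.2% FBS, and 63.6 and 63.8 in replicates 1 and 2 of 0.2% FBS + exosome. The 2 differentiation media without exosomes held the highest values, and all 3 exosome libraries lay below the growing cells. Its change with exosomes was −0.41 and −0.40 in the 2 libraries of 0.2% FBS (SD 0.003) and −0.58 in 2% HS, and the change in 0.2% FBS did not pass the test (limma adjusted p = 0.168).

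Dll1 and Hes6 are given as sequence because they had the largest rise and the largest mean fall of the 10 genes with exosomes in 0.2% FBS on the log2(FPKM + 1) scale. With a pseudocount of 0.1, Hey1 (1.65) and Jag1 (1.22) were above Dll1 (1.18). RefSeq promoter sequences (GRCm38.p6) were matched for 7 of the 10 genes, with 9 start sites. The target genes Hes1, Hey1 and Heyl were not among them, so the motif counts below do not cover them. The 250 bases before the start are written 5′ to 3′ on the strand of the gene, for Dll1 chr17:15376933-15377182 and for Hes6 chr1:91414039-91414288, both on the minus strand, and capitals mark E-boxes, the letters CANNTG that basic helix-loop-helix proteins such as MyoD recognise.
Dll1: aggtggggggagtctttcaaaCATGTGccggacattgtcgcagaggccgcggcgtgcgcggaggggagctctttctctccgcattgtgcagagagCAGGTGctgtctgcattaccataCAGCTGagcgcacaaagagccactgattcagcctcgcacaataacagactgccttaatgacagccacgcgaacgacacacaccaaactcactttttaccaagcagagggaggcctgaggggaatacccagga
Hes6: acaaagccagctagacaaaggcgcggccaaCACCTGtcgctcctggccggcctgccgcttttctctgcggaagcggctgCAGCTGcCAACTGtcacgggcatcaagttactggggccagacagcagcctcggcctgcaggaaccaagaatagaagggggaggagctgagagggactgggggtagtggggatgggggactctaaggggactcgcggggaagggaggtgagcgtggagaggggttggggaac
Each gene has 2 start sites in the table, and the one nearest its annotated 5′ end is printed, a choice made after the E-boxes had been counted. Each of the 2 stretches holds 3 E-boxes, and the other start site of each gene holds 1, beginning 220 bases before the start for Dll1 and 150 for Hes6. In Dll1 they begin 229, 155 and 132 bases before the start. In Hes6 they begin 220, 171 and 164 bases before it, and the word CAGCTG occurs in both genes. Of all 32851 promoters in the table, taken from 250 bases before to 50 after the start, 17.6% hold 3 or more E-boxes and 72.3% at least 1, against 5 of the 9 windows here. The RBPJ motif GTGGGAA was found on neither strand in any of the 9 windows (6.38% of all promoters hold it), nor was its core TGGGAA, which lies within that motif (25.6%). The N-box CACNAG, a site of HES proteins, was found in 5 of the 9 windows, against 42.5% of all promoters. These letters describe the windows only.

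The comparison within 0.2% FBS covers 2 libraries with and 1 without exosomes. Notch2, Notch3, Dll1 and Jag1 rose in the limma test, which is 4 of the 10 genes, where 8.2% of the 10731 genes were called higher. No member was called lower, where 4.32% of all genes were, and 8 of the 10 had an unadjusted p under 0.05, as 31.5% of all genes did. Counted by direction alone, 8 members were higher in each exosome library, Hes6 was lower in each and Heyl was split, while 55.2% of all genes were higher in each. The median log2 change of the 10 genes was 0.75 and that of all 10731 genes 0.14. The scaling brought these medians to 0.65 and 0.04, a shift common to all genes, and kept the direction of all 10 mean changes. In bulk RNA, fewer cells of a type and less RNA per cell cannot be told apart.

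The only replicate spread behind the test is the difference between replicates 1 and 2, with 1 residual degree of freedom. limma draws the spread of each gene toward a trend over all genes tested. Jag1, with an SD of 0.03, thus had an SE of 0.17. Single libraries are assumed to vary alike. All 4 calls were lost when values below 1 FPKM were raised to 1 without a pseudocount (lowest adjusted p = 0.134), when genes below the filter were kept (0.243), and in a limma fit of 1 exosome effect for both media (0.705).

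Of the 7 myoblast and myotube markers, 6 were lower in both exosome libraries of 0.2% FBS, as 2956 of the 10731 genes were. Myf5, a factor of undifferentiated myoblasts, was higher in both. Myf5 (mean log2 change 0.96, limma adjusted p = 0.0196) and the troponin Tnnt3 (−1.81, limma adjusted p = 0.0289) passed the test, and the other 5 did not. The embryonic myosin Myh3 had a mean difference of −1.58 (SD 0.58, limma adjusted p = 0.0586), and it and Tnnt3 were below −1 in each library. The median change of the 7 markers was −0.92 in 0.2% FBS. In 2% HS it was −0.09, with single markers from −0.52 for Myf5 to 0.35 for Myog. The part of the markers in the changes of the Notch genes was not tested.

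**Figure D2:**
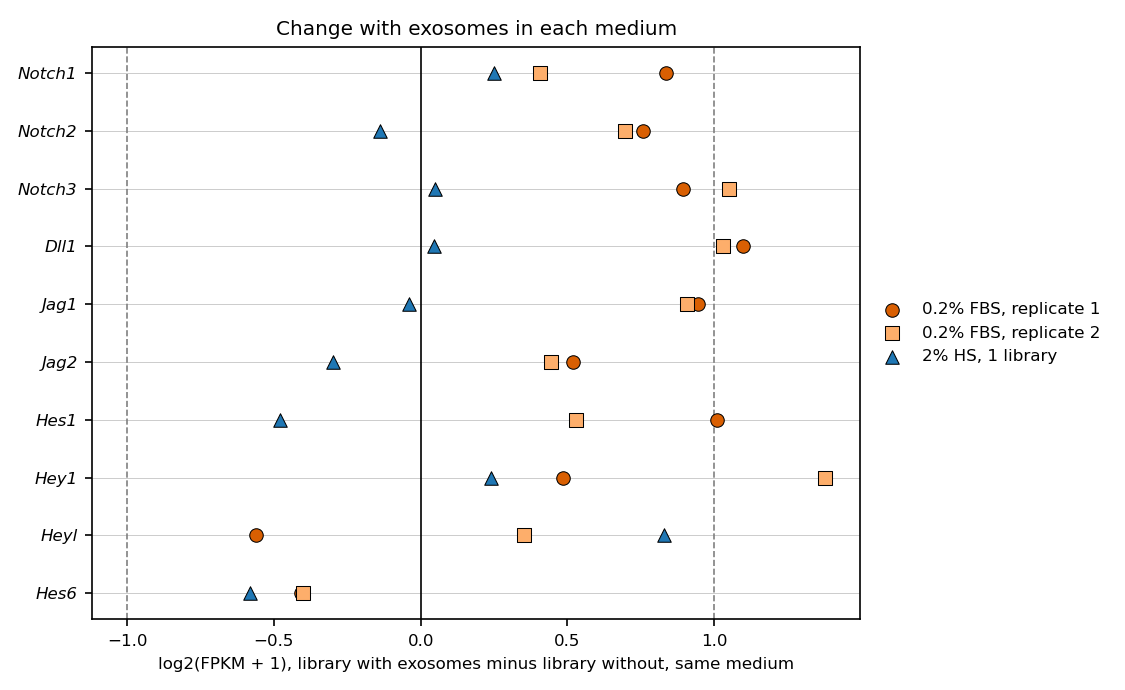
The change of each gene with exosomes is given as the difference of log2(FPKM + 1) between a library with and the library without exosomes in the same medium (horizontal axis), with 1 symbol per exosome library and dashed lines at −1 and 1. Dll1 is the only gene with both 0.2% FBS symbols to the right of 1, and no triangle of 2% HS lies beyond either line. The 2 symbols of Hes6 in 0.2% FBS coincide.

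Replicates 1 and 2 differed more for some of the genes than for others. The SD of log2(FPKM + 1) between them had a median of 0.104 over the 10731 genes, and 5 of the 10 members lay above it. Notch1, Hes1, Hey1 and Heyl exceeded 0.3, as 8.36% of all genes did. The 4 genes called in 0.2% FBS had SDs between 0.03 and 0.11.

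In 2% HS, 1 library with exosomes was set against 1 without, so the differences have no replicate check. The receptors and ligands differed by −0.30 to 0.25. Notch3 and Dll1 each differed by 0.05 and Jag1 by −0.04, whereas Notch1 differed by 0.25 and Notch2 by −0.14. Jag2 was at 0.778 of its level without exosomes (−0.30) and Hes1 at 0.696 (−0.48). Hey1, below 1 FPKM in both libraries, was 1.52 times as high with exosomes (0.24). The largest differences were those of Hes6 (−0.58) and Heyl, which was 2.12 times as high with exosomes (0.83). No member passed 1 or −1, as 0.652% of the 10731 genes did. Heyl, however, passed 1 by its plain FPKM ratio, as 0.727% of the genes did. It also passed with a pseudocount of 0.1 (1.05) and with values below 1 FPKM raised to 1 (1.08), as 0.643% of the genes did in each. The median over the 10 genes was 0.002, with 5 genes higher and 5 lower, and that of all genes was −0.04.

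The difference between the 2 media was tested in the same limma fit. For Hes1 the change in 0.2% FBS exceeded that in 2% HS by 1.25 (SE 0.32, adjusted p = 0.0963), for Dll1 by 1.02 (SE 0.24, adjusted p = 0.0803) and for Jag1 by 0.97 (SE 0.27, adjusted p = 0.110). Notch3 (0.92, adjusted p = 0.106), Notch2 (0.87, 0.110), Jag2 (0.78, 0.149), Hey1 (0.69, 0.484) and Notch1 (0.37, 0.557) had differences of the same sign. Hes6 had a difference of 0.18 (adjusted p = 0.776) and Heyl of −0.93 (adjusted p = 0.338). None of the 10 genes passed the threshold in limma, where 1.16% of all genes did, and 6 had an unadjusted p under 0.05, as 19.5% of all genes did. The exosome changes in the 2 media were therefore not shown to differ for any of the 10 genes.

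Most of the set was lower in the differentiation media than in growing cells, and 3 genes passed the test. Both differentiation media were compared with the same 10% FBS library, so their differences from it are not independent. Notch3 was at 0.378 of its growing level in 2% HS and at 0.424 in 0.2% FBS, Dll1 at 0.434 and 0.440, and Jag2 at 0.459 and 0.611. Each of these 3 conditions has 1 library, so the only replicate spread behind the SE is that of the 2 libraries of 0.2% FBS + exosome. Those are not in the comparison, and limma draws their spread toward the trend over all genes. For the mean of both media minus 10% FBS, the log2 differences were −1.27 for Notch3 (SE 0.16, limma adjusted p = 0.0284), −1.07 for Dll1 (SE 0.16, limma adjusted p = 0.0284) and −0.82 for Jag2 (SE 0.16, limma adjusted p = 0.0461). These 3 genes were called lower, where 0.578% of the 10731 genes were. They were lost when values below 1 FPKM were raised to 1 (lowest limma adjusted p = 0.256), when genes below the filter were kept (0.345) and without the mean-variance trend (0.0641).

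The other members did not pass that test. Hey1 was at 0.190 of its growing level in 2% HS and at 0.181 in 0.2% FBS, the lowest ratios of the set, with a mean difference of −1.33 (SE 0.33, limma adjusted p = 0.0786). Hes1 was at 0.622 and 0.537 (−0.74, limma adjusted p = 0.106). Notch2 had ratios of 0.617 and 0.607, and Jag1 of 0.549 and 0.509. Notch1 and Heyl had unequal ratios in the 2 media, with 0.452 and 0.370 in 2% HS against 0.703 and 0.725 in 0.2% FBS. Hes6 alone was higher than in growing cells, at 1.43 times in 2% HS and 1.17 times in 0.2% FBS (mean difference 0.37, limma adjusted p = 0.278).

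By the fold threshold, 4 members were below −1 in 2% HS (Notch3, Dll1, Hey1 and Heyl), where 0.522% of the 10731 genes were. By plain FPKM ratios there were 6, with Notch1 and Jag2 added, where 1.43% of the genes were. In 0.2% FBS the members below −1 were Notch3, Dll1 and Hey1, where 0.69% of the genes were. Hey1 met the filter on low values only through 10% FBS and 0.2% FBS + exosome, where it was high, so it adds no support to these counts. The median of the 10 genes was −0.97 in 2% HS and −0.68 in 0.2% FBS, against −0.08 and −0.09 for all genes. Scaling to the same 75th percentile left 9 members lower and 1 higher in each medium. The medians of all genes were negative too, and the share of all genes that were lower is not given here. Set directly against each other, 2% HS minus 0.2% FBS, the 2 media without exosomes differed most for Heyl (−0.74), Notch1 (−0.51) and Jag2 (−0.36), and by no more than 0.29 for the other 7 genes.

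**Figure D3:**
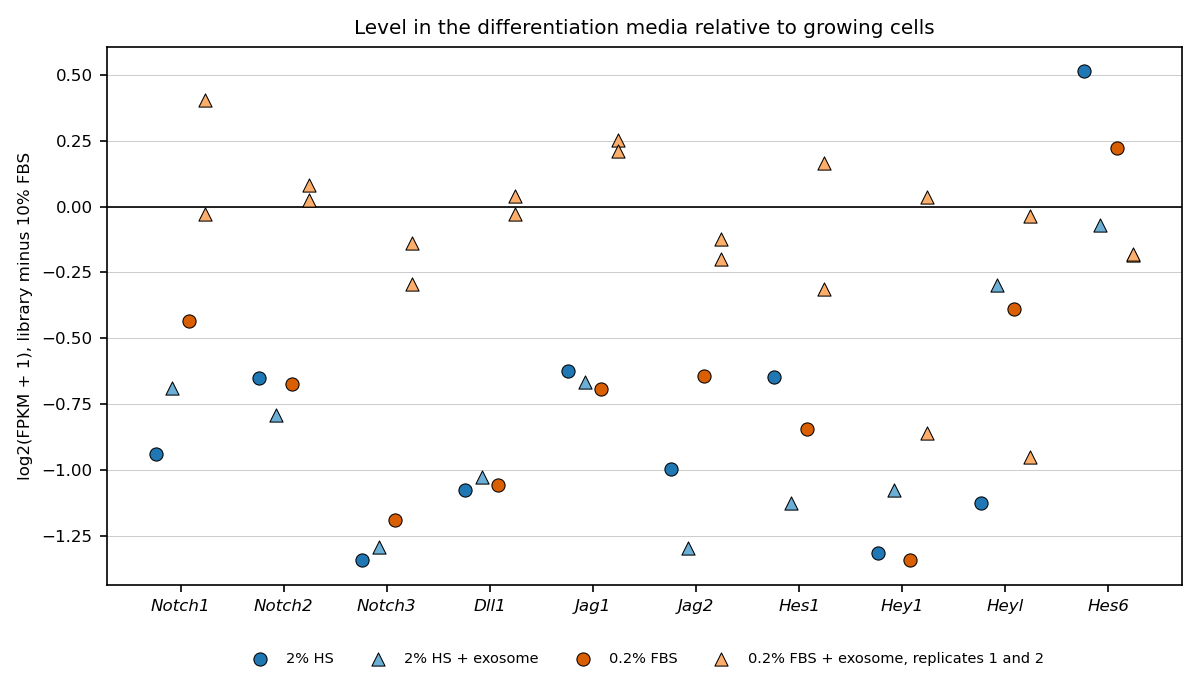
Each point is the difference of log2(FPKM + 1) between a library of differentiating cells and the 10% FBS library (vertical axis), with circles for media without and triangles for media with exosomes. For Notch2, Notch3, Dll1, Jag1, Jag2 and Hes1 the triangles of 0.2% FBS + exosome lie nearer to 0 than the circles do, while those of 2% HS + exosome stay near or below the circles.

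With exosomes in 0.2% FBS the levels were near those of growing cells. The mean of replicates 1 and 2 minus 10% FBS was 0.01 for Dll1, 0.05 for Notch2, −0.07 for Hes1, −0.16 for Jag2, 0.19 for Notch1, −0.22 for Notch3 and 0.23 for Jag1. For Notch1, Dll1, Hes1 and Hey1 the 10% FBS value lay between the 2 exosome libraries. Heyl (−0.49) and Hey1 (−0.41) had the largest mean differences, from replicate 1 alone. In replicate 1 they differed from 10% FBS by −0.95 and −0.86, and in replicate 2 by −0.04 and 0.04. In 2% HS + exosome the differences from 10% FBS were −1.30 for Jag2, −1.29 for Notch3, −1.13 for Hes1, −1.08 for Hey1 and −1.03 for Dll1, and −0.79 for Notch2, −0.69 for Notch1 and −0.67 for Jag1. Heyl (−0.30) and Hes6 (−0.07) were nearer to growing cells there than in 0.2% FBS + exosome (−0.49 and −0.18). All of these comparisons use the same 10% FBS library. Counted over the set, 8 members had all 3 libraries of 10% FBS and 0.2% FBS + exosome above the other 3, an order noticed after the values had been seen, and 35.2% of the 10731 genes have it.

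Across the 6 libraries the receptors and ligands had high correlations with each other. Over their 15 pairs Pearson r of log2(FPKM + 1) ran from 0.865, between Jag1 and Jag2, to 0.989. It was 0.989 between Notch2 and Dll1, 0.984 between Notch2 and Jag1, 0.982 between Notch3 and Dll1 and 0.981 between Dll1 and Jag1. Hes1 was nearest to Notch2 (0.938) and Hey1 to Notch3 (0.897). Hes6 had negative r with all other members, from −0.41 with Hes1 to −0.76 with Notch1 and −0.50 with Heyl. Leaving out Hes6, Heyl had r between −0.04 with Hes1 and 0.69 with Hey1. These coefficients describe 6 libraries that fall into 2 sets, and the libraries share depth and condition between genes.

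Many other genes had a high correlation with the members. Of the 10730 other genes averaging 1 FPKM or more, 828 had r above 0.95 with Jag1, 766 with Notch2, 670 with Dll1 and 555 with Notch3. The numbers were lower for Jag2 (195), Hes1 (145), Hey1 (138) and Notch1 (93), and lowest for Hes6 (26) and Heyl (7). The 2 most alike were Ugdh and Mon1b for Jag1 (both 0.999), Safb2 (0.999) and Sav1 (0.998) for Notch3, Col16a1 (0.998) and Crk (0.997) for Notch2, and Cggbp1 and Zfp68 for Dll1 (both 0.998). Zfp407 and Mthfd2l were the most alike to Jag2, and Sertad2 (0.992) and Nat14 (0.989) to Notch1. For the targets they were Faim (0.997) and Nfat5 (0.995) for Hes1, Rhebl1 and Pitx3 for Hey1 (both 0.995), and Mb21d2 (0.985) and Rps27a (0.965) for Heyl. Lrrfip2 (0.995) and Flad1 (0.990) were the most alike to Hes6.

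The other genes of the pathway were described by role. The remaining receptor Notch4, the ligands Dll3 and Dll4 and the Delta-like genes Dlk1 and Dlk2 did not average 1 FPKM, the highest value being 1.36 FPKM for Dlk2 in 2% HS + exosome. Of the 7 other HES and HEY genes and direct targets, Hes7 had the highest value, 0.203 FPKM in 2% HS, and Hes2 was listed at 0 in all libraries. Apart from Dlk2, which ranged from 0.650 to 1.36 FPKM and was above Hey1 in 3 of the 6 libraries, no gene of these lists exceeded 0.203 FPKM in any library.

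The nuclear partners of the receptor were expressed and all 8 were higher in each exosome library of 0.2% FBS, but none passed the limma test. Rbpj, the DNA-binding protein of the pathway, stood at 20.8 FPKM in 10% FBS, 15.3 in 2% HS, 16.8 in 2% HS + exosome, 15.2 in 0.2% FBS, and 19.8 and 19.6 in replicates 1 and 2 of 0.2% FBS + exosome. Its 2 exosome libraries of 0.2% FBS were near the growing cells, with a mean change of 0.35 (limma adjusted p = 0.162). The changes in the list ran from 0.09 for the coactivator Maml2 to 0.54 for the acetyltransferase Kat2b, with a median of 0.33.

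Among 11 corepressors, 9 were higher and 1 was lower in each exosome library of 0.2% FBS. The Groucho-type corepressors Tle1 and Tle2, partners of HES proteins, rose. Tle2 stood at 8.77 FPKM in 0.2% FBS without and at 17.4 and 15.0 FPKM with exosomes (0.81, limma adjusted p = 0.0229). Tle1 stood at 4.99 FPKM and at 8.40 and 9.67 (0.74, limma adjusted p = 0.0291). Both genes were higher in each exosome library of 0.2% FBS than in the library without. In 2% HS, Tle2 was lower with exosomes, at 5.88 against 8.31 FPKM, and Tle1 stood at 4.89 against 4.75 FPKM. Tle4 had the lowest change, −0.26, and the median of the list was 0.37.

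Of the 10 proteases and γ-secretase subunits, 9 averaged 1 FPKM or more. Of these, 7 were higher and 1 was lower in each exosome library, none passed the test, and the changes ran from −0.05 for Psen2 to 0.47 for Ncstn (median 0.24). The 5 expressed enzymes of receptor glycosylation were higher in each library without passing the test, from 0.22 for Eogt to 0.56 for the Fringe gene Rfng (median 0.38). Lfng and Mfng, the other Fringe genes, had means below 1 FPKM.

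Of 14 genes of ligand and receptor trafficking, 11 were expressed, with 8 higher and 3 lower in each exosome library and a median of 0.15. Dtx3, a Deltex-type ubiquitin ligase, rose from 33.5 FPKM in 0.2% FBS to 59.3 and 59.5 FPKM with exosomes (0.81, limma adjusted p = 0.0229). Neurl1a, a ubiquitin ligase of the Neuralized type, stood at 53.8 FPKM in 0.2% FBS and fell to 31.4 and 31.0 FPKM (−0.77, limma adjusted p = 0.0250). It was the only listed gene called lower, and Dtx3 went the other way. Over all 44 expressed genes of the lists, 37 were higher and 5 lower in each exosome library, 3 were called higher and 1 lower, and 0 passed a log2 change of 1 or −1 in each. These counts stand beside 55.2% of all genes higher in each library, 8.2% called higher and 4.32% called lower, so over the 44 genes together the called shares were not above those of all genes. Their median was 0.30 in 0.2% FBS (0.21 after the scaling) and 0.01 in 2% HS, against 0.75 and 0.002 for the 10 genes. These calls come from the same limma fit, in which 0 of all genes tested were called with values raised to 1 (2929 at an unadjusted p under 0.05), without the filter (3121) or with 1 exosome effect for both media (709).

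**Figure D4:**
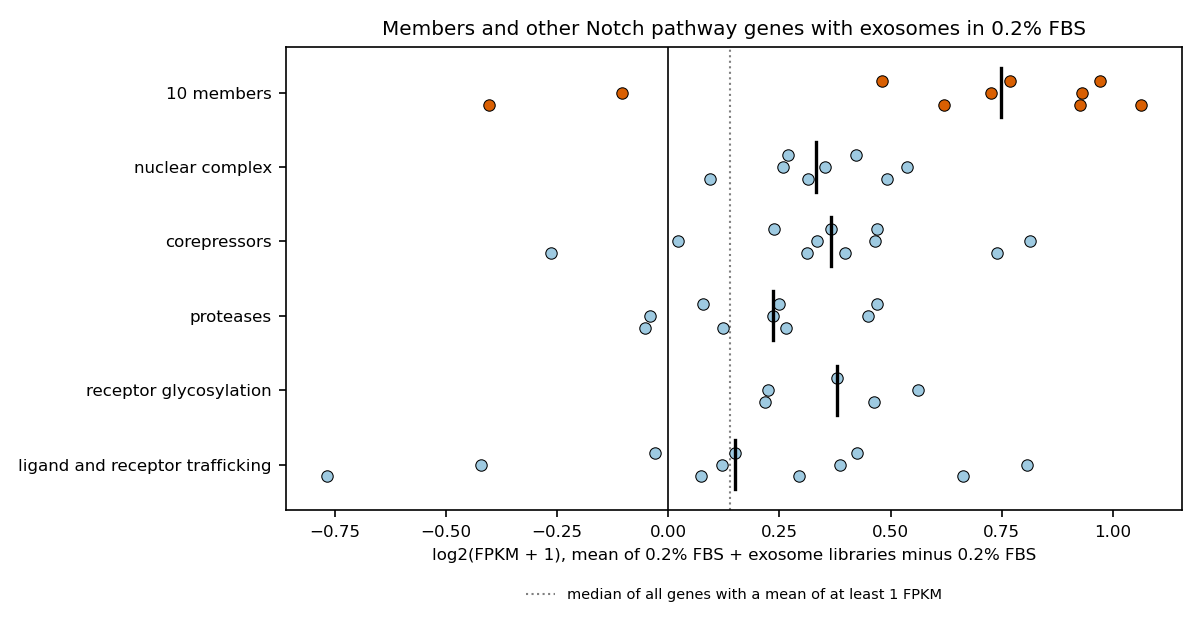
Each point is 1 gene averaging 1 FPKM or more, placed by its mean log2(FPKM + 1) in 0.2% FBS + exosome minus that in 0.2% FBS (horizontal axis), and black bars are the medians of the lists. The median of the 10 genes lies at 0.75 and those of the 5 other lists between 0.15 and 0.38, with the dotted line at 0.14 for all genes.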

How the data were processed

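RNA of C2C12 cells was sequenced as stranded mRNA libraries of 75 bp single-end reads. Per the labels and the study's methods, the authors trimmed the reads with cutadapt 1.9.1 and mapped them to mm10 with TopHat2 2.1.0, and they deposited 1 table of FPKM values computed with Cufflinks. FPKM is already divided by transcript length and library depth, so count tests were not used, and depth was estimated from the spacing of low values. The labels and the study's methods name different RNA kits.

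Changes are differences of log2(FPKM + 1). limma 3.58.1 (R 4.3.3) was fitted with a mean-variance trend and 1 mean per condition to the 10731 genes averaging 1 FPKM or more, with Benjamini-Hochberg adjustment over all of them and a threshold of 0.05. The fold threshold was a log2 change above 1 or below −1 in each exosome library. Alternatives were other pseudocounts, filters, scalings and models, and leaving out each replicate. Plain FPKM ratios were added after the data had been seen. The genes named are the 10 members, the highest and lowest change of each pathway list, and the 2 genes most alike to each member. Rbpj, Tle1 and the genes of lists below 1 FPKM were named after their values were seen. Members and lists were chosen with earlier results of these data known. Promoter sequences are from RefSeq. Protein sequences were not used here.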

Additional observations from a re-analysis of the deposited data

Results flagged for a closer look

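Of the 10 genes, 4 had values in opposite directions with exosomes in the 2 media, higher in both exosome libraries of 0.2% FBS and lower in the exosome library of 2% HS, as 33.7% of the 10731 genes were. Between the media, the change in 0.2% FBS exceeded the one in 2% HS by 1.25 for Hes1 (adjusted p = 0.0963), 0.97 for Jag1 (0.110), 0.87 for Notch2 (0.110) and 0.78 for Jag2 (0.149) in limma. None of these differences passed 0.05, and the change in 2% HS rests on 1 library against 1. For Jag1 the change in 2% HS was only −0.04.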

How the results depend on the processing

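The number of members above a log2 change of 1 in each exosome library of 0.2% FBS, 1 as reported, was 2 with a pseudocount of 0.1 FPKM, 2 with values below 1 FPKM raised to 1, 3 by plain FPKM ratios, an alternative added after the data had been seen, and 0 after scaling to the 75th percentile. Leaving out 1 exosome library gave 2 to 3 members. They were Dll1 and Hes1 without replicate 2 (1.44% of all genes), and Notch3, Dll1 and Hey1 without replicate 1 (2.91%). In 2% HS the number above 1 was 0 as reported, where 0.354% of all genes were. It was 1, Heyl, with a pseudocount of 0.1 (0.643% of all genes), with values raised to 1 (0.643%) and by plain ratios (0.727%). Members below −1 in 2% HS against 10% FBS were 4 as reported (0.522% of all genes) and 5 after scaling (0.54%). They were 6 with a pseudocount of 0.1 (1.2%), with values raised to 1 (1.12%) and by plain ratios (1.43%). In 0.2% FBS they were 3 throughout, while the share of all genes ran from 0.615% after scaling to 2.06% by plain ratios.

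The 4 calls of limma in 0.2% FBS became 0 with values raised to 1 (7 members at an unadjusted p under 0.05, and 27.3% of all genes), 0 without a filter (6, and 19.0%) and 0 with 1 exosome effect for both media (4, and 6.61%), and 5 with a pseudocount of 0.1, where Hes1 was added and 13.6% of all genes were called in either direction. With a filter at 5 FPKM there were 4, Hes1 among them, since Jag1 was not tested, and 14.3% of the 8101 genes tested were called in either direction. The 3 calls of limma against growing cells became 0 with values raised to 1 (6 at an unadjusted p under 0.05, and 18.6% of all genes). They also became 0 without a filter (6, and 14.4%) and 0 without the mean-variance trend (8, and 21.1%). After scaling there were 5, with Notch2 and Hey1 added. In either direction 5.51% of all genes were then called, against 1.99% in the fit as reported. Hey1 met the filter only through 10% FBS and 0.2% FBS + exosome, where it was high, so its place in these counts adds no support. Of all genes, 1344 were called in 0.2% FBS as reported and 0 with values raised to 1, without a filter or with 1 exosome effect. The cause was not tested. The difference between media had 0 members called in limma in all settings run, with 5 to 7 at an unadjusted p under 0.05 (13.8% to 20.4% of all genes). Signs were followed for the changes of the 10 members with exosomes in either medium and the differences of 2% HS and 0.2% FBS from 10% FBS. Heyl in 0.2% FBS changed sign, from −0.10 to 0.35 without replicate 1 and to 0.30 with 1 exosome effect. No other did in the settings run for each. The fit of 1 exosome effect was set against the changes in 0.2% FBS only. Its values for Hes1 (0.23), Notch2 (0.36), Jag1 (0.51) and Jag2 (0.15) are opposite in sign to their changes in 2% HS. For 0.2% FBS + exosome against 10% FBS, the sign for Notch1, Dll1, Hes1 and Hey1 depends on which replicate is kept. limma with 1 mean per condition could not be run without 1 exosome library, since no residual degree of freedom is left. The fit of 1 exosome effect was not run that way. No paired analysis was possible because the control in 0.2% FBS has 1 library. The depth, at about 42 reads for Hey1 in its lowest library, limits that gene most.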
